A study of Mus musculus with 4 samples.

Results

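Macrophages are phagocytes of the myeloid lineage and often make up a large part of the immune cells of mammary tumours. This section describes 31 macrophage genes, taken by symbol from a deposited table of 28440 gene rows measured in 4 mammary gland tumours. The members were set by name and cover macrophage identity, complement C1q, phagocytic receptors and genes of lipid-associated macrophages, and all 31 were found in the table. The 4 tumours, numbered 1 to 4, were bulk tissue from mammary gland of mice with the genotype MMTV-R26Met, a model in which Rosa26-encoded Met is turned on by an MMTV-driven recombinase, mainly in mammary epithelial cells. They form 1 group. No untreated, normal or control tissue was among the 4 samples, and the labels name no treatment, age or sex and do not say whether each tumour came from a separate mouse. The p-values below therefore measure only the spread between these 4 samples.

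Macrophages depend on the receptor Csf1r, which binds the growth factors Csf1 and Il34, and on the transcription factor Spi1, also called PU.1. They take up dying cells, lipids and opsonised particles through scavenger, Fc and complement pathways, and secrete the 3 chains that form complement C1q. In tumours, a state rich in Trem2, Apoe and Gpnmb transcripts is known as lipid-associated. Several members are also made by other cells, among them Apoe, Csf1, Lgmn, Cd14 and Gpnmb, so a transcript level in bulk tissue is not a count of macrophages. In such tissue, fewer cells of a type and less RNA per cell cannot be told apart.

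The libraries held 35220504 to 42809015 counts, and no pair of them was 1 library deposited again (chi-square per degree of freedom 142 to 415). The epithelial markers Krt8, Krt18 and Epcam were abundant in every tumour, with at least 476 CPM each. Levels are given as CPM, counts scaled to a common library size, after TMM scaling, a method that removes differences in library composition. The 31 genes together took 0.176%, 0.315%, 0.249% and 0.277% of the counts of tumours 1 to 4. The exact binomial 95% intervals of these shares were 0.174 to 0.177%, 0.313 to 0.317%, 0.247 to 0.251% and 0.276 to 0.279%. They cover counting error only. Tumour 1 thus had the lowest share and tumour 2 the highest, a 1.81-fold span in summed CPM from 1768 to 3201. Apoe held 26.4% of the summed CPM, and without it the sums ran from 1440 to 2290 CPM.

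Of the 31 genes, 30 had enough counts to be tested, and Marco did not. The test asked whether a gene differed between the 4 tumours more than genes of like expression did (edgeR, intercept-only negative binomial fit, Benjamini-Hochberg adjustment over 15808 genes). Over all genes tested 3.63% passed at an adjusted p of 0.05, and 1 of 30 macrophage genes passed, Gpnmb. That share is near the background. The median span between lowest and highest tumour was 1.67-fold for the macrophage genes and 1.73-fold for all genes tested, and 21 of 30 (70.0%) stayed under 2-fold, against 63.0% of all genes. The 9 with 2-fold or more were Csf1, Laptm5, Cd14, Lyz2, Ms4a7, Mertk, Cd163, Apoe and Gpnmb.

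Small as these ranges were, tumours 2 and 1 lay at the ends for most members. Tumour 2 had the highest level of 19 of 30 macrophage genes (63.3%), whereas it was highest for 18.9% of all genes tested. Tumour 1 had the lowest level of 20 of 30 (66.7%), against 24.8% of all genes. The median differences from the gene mean, on the log2 scale, were -0.27, 0.27, -0.11 and 0.10 for tumours 1 to 4, while over all genes tested they were -0.01 in tumour 1 and 0 in the others. Between tumours 1 and 2 directly, 26 of 30 genes were higher in tumour 2, the exceptions being Csf1, Fcgr1, Msr1 and Gpnmb. Members were not independent of each other, and no test was made of their shared direction.

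**Figure D1:**
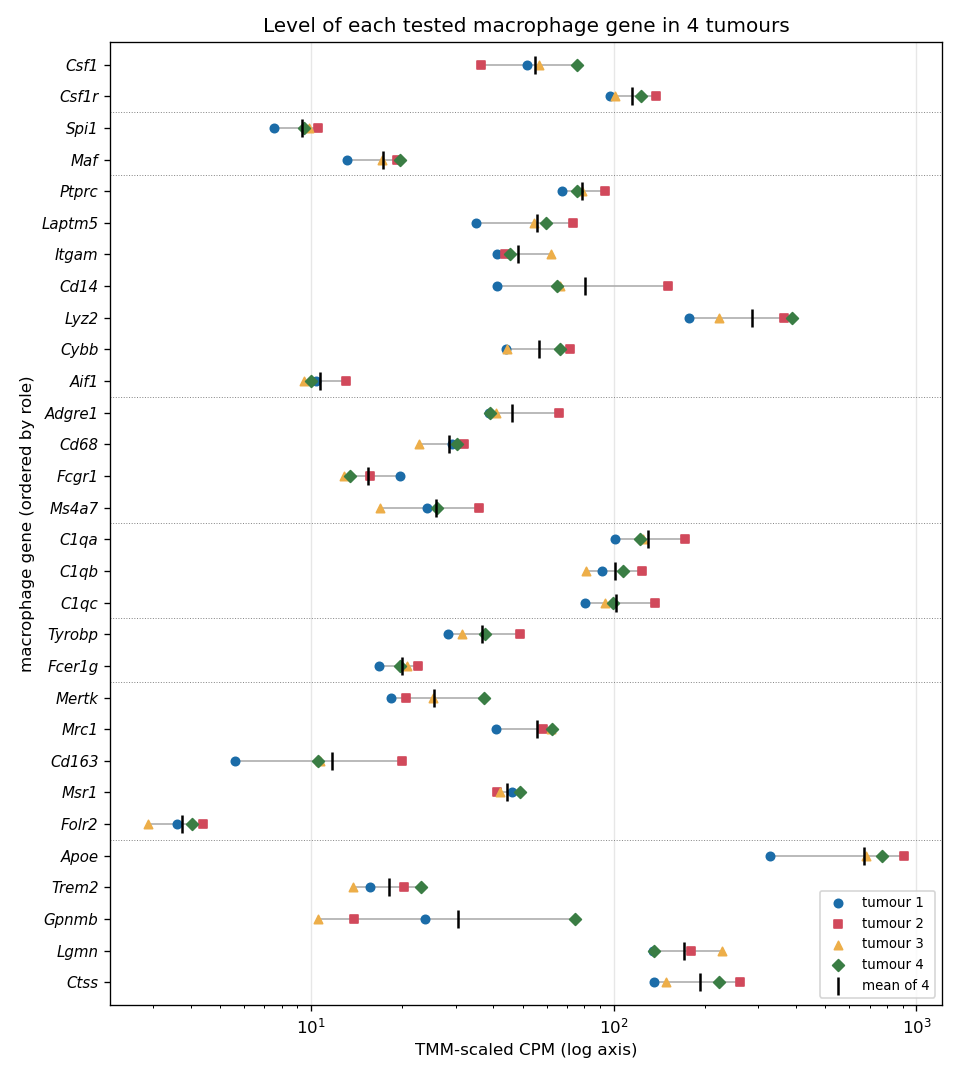
Level of each of the 30 tested macrophage genes in the 4 tumours, as TMM-scaled CPM on a log axis, with coloured points for tumours, a grey line for the range and a black bar for the mean. Most genes span less than 2-fold, tumour 2 (squares) is most often highest and tumour 1 (circles) lowest, and Gpnmb stands out with 74.3 CPM in tumour 4.

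Csf1r, the receptor that macrophages need to survive, had 97.2, 138, 101 and 123 CPM in tumours 1 to 4 and averaged 115 ± 19.3 (SD, n = 4). The levels ran 1.42-fold from tumour 1 to tumour 2, within the spread of like genes (edgeR adjusted p = 1). Its ligand Csf1 had 51.6, 36.5, 56.6 and 75.6 CPM in the same tumours, so it was lowest where the receptor was highest. Csf1 spanned 2.07-fold and did not pass (edgeR adjusted p = 1). Il34, the other ligand, was scarcer at 9.35 ± 3.03 CPM (SD, n = 4). Counts of Csf1 were 3.03 times those of Il34 in tumour 2 and 14.3 times in tumour 4, or 1.24 and 5.85 times per transcript length.

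The transcription factor Spi1, which sets the myeloid programme, had 7.53, 10.5, 9.85 and 9.50 CPM in tumours 1 to 4. Maf, a factor of resident macrophages that lymphocytes and other cells also express, had 13.1, 19.2, 17.2 and 19.6 CPM. Both were lowest in tumour 1, with the other 3 tumours close together. Their spans of 1.40-fold and 1.5-fold did not pass the test (edgeR adjusted p = 1 for each).

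Ptprc encodes CD45, found on nearly all leukocytes, and had 67.2, 93.3, 78.3 and 75.8 CPM in tumours 1 to 4. Its 1.39-fold span was among the narrow ones. Laptm5, a lysosomal protein of haematopoietic cells, followed the same order at the ends but more widely, with 35.1, 73.3, 54.6 and 59.8 CPM. Itgam, the alpha chain of the integrin CD11b, shared by monocytes and neutrophils, differed in order: it stood at 62.1 CPM in tumour 3, against 41.1 to 45.5 elsewhere. Tumour 3 was also the tumour with the highest summed neutrophil markers (75 CPM, against 12 to 46), whose part in the Itgam level was not tested.

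Cd14, a co-receptor for bacterial lipopolysaccharide, had the widest range of the leukocyte group. It had 41.0, 151, 66.2 and 64.8 CPM in tumours 1 to 4, so that tumour 2 was 3.67-fold above tumour 1 and the other 2 lay between. The unadjusted p was 0.0385 and the edgeR adjusted p 0.489, so Cd14 did not pass. Lyz2, the lysozyme of macrophages and granulocytes, split the tumours in pairs, with 364 and 387 CPM in tumours 2 and 4 and 177 and 222 CPM in tumours 1 and 3. Lyz1, a close copy that could share reads with it, had 9 to 54 counts per library against 7531 to 15871 for Lyz2. Cybb, the catalytic subunit of the phagocyte NADPH oxidase, split the tumours the same way, at 71.6 and 66.6 CPM against 44.1 and 44.3 CPM. Aif1, the calcium-binding protein IBA1, was nearly level, with 10.4, 13, 9.46 and 9.96 CPM. None of these genes passed the test (edgeR adjusted p = 1 for Lyz2, Cybb, Aif1, Ptprc, Laptm5 and Itgam).

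Among the genes used to identify macrophages, Adgre1, which encodes F4/80, had 66.1 CPM in tumour 2 and 38.8, 40.9 and 39.1 CPM in tumours 1, 3 and 4. The 3 lower tumours lay close together and tumour 2 stood 1.71-fold above the lowest (edgeR adjusted p = 1). Cd68, a glycoprotein of endosomes and lysosomes, was flatter, with 29.1, 31.9, 22.7 and 30.3 CPM. Ms4a7, a membrane protein of macrophages, had 24.2, 36.0, 16.9 and 26 CPM and was thus highest in tumour 2 and lowest in tumour 3, 2.13-fold apart. Fcgr1, the high-affinity receptor for immunoglobulin G, went against the others. It was the 1 member highest in tumour 1, at 19.7 CPM, with 15.6, 12.8 and 13.4 CPM in tumours 2 to 4. Cd68, Ms4a7 and Fcgr1 did not pass either (edgeR adjusted p = 1 for each).

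The complement C1q chains are encoded by 3 neighbouring genes on chromosome 4 (GRCm38), and 1 C1q molecule needs all of them. C1qb lies at 136880126 to 136886200, C1qc at 136889801 to 136892936 and C1qa at 136895916 to 136898844. C1qa had 101, 172, 125 and 122 CPM in tumours 1 to 4. C1qb had 91.4, 124, 80.8 and 107 CPM. C1qc had 80.2, 137, 93.3 and 99.1 CPM. All 3 chains were highest in tumour 2, by 1.53-fold to 1.71-fold over the lowest tumour, and none passed the test (edgeR adjusted p = 1 for each). The ratio of C1qa to C1qc counts was 1.26, 1.26, 1.34 and 1.23 in tumours 1 to 4, a range of 0.13 on the log2 scale. C1qa to C1qb moved more, from 1.10 in tumour 1 to 1.55 in tumour 3. Per kilobase of transcript the means were 125 ± 29.0 CPM for C1qa, 92.7 ± 17.3 for C1qb and 85.2 ± 20.4 for C1qc (SD, n = 4). Within each tumour C1qa was above both, at 1.16 to 1.62 times C1qb and 1.43 to 1.55 times C1qc per transcript length.

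The sequences before the starts of C1qb and C1qc are shown because these neighbours were both highest in tumour 2 and next in tumour 4, and that of Gpnmb because it was the member that passed the test. RefSeq windows (GRCm38.p6, 250 bases before to 50 after a start) were used for 23 of 31 members, with those of 1 chromosome left out. They were searched on both strands for GAGGAA, the core of the sequence that PU.1 recognises. It occurred in 16 of 29 windows of members (55.2%), belonging to 15 genes, and in 28.3% of all 32851 windows searched, which left out those of 1 chromosome. The letters say nothing about whether the factor binds there. The 250 bases before each start are given 5′ to 3′ on the gene's own strand, with the match on either strand in capitals. C1qb is on the minus strand at chr4:136886201-136886450, C1qc on the minus strand at chr4:136892915-136893164 and Gpnmb on the plus strand at chr6:49036268-49036517. The C1qc window belongs to a start inside the gene span given above, so the bases nearest that start lie within the span.
C1qb: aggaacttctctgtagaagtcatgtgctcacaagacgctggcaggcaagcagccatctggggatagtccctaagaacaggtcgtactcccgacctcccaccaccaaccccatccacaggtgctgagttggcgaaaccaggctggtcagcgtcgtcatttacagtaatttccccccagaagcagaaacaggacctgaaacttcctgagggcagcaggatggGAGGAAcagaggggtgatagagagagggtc
C1qc: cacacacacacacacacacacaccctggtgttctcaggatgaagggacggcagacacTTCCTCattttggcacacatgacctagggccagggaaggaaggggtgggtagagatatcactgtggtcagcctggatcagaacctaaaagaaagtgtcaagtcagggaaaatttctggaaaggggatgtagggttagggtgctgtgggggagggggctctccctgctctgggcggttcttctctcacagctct
Gpnmb: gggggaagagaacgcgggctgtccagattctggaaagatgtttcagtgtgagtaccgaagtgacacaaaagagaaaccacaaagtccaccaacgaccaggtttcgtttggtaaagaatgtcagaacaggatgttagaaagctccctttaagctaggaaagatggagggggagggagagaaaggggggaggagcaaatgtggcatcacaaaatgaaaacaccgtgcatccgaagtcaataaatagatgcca
C1qb and C1qc each held 1 match in these bases, and Gpnmb held 0.

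Tyrobp and Fcer1g encode small adaptors that carry the activating signal for Trem2 and for Fc receptors. Tyrobp had 28.4, 49.1, 31.6 and 37.5 CPM in tumours 1 to 4, and Fcer1g had 16.7, 22.6, 20.7 and 19.7 CPM. Both peaked in tumour 2 and had their lowest level in tumour 1, by 1.73-fold and 1.35-fold, and neither passed (edgeR adjusted p = 1 for each). Tyrobp counts were 1.63 to 2.43 times those of Trem2, or 3.14 to 4.69 times per transcript length. Counts of Fcgr1, which signals through Fcer1g, were 1.18 times those of Fcer1g in tumour 1 and 0.618 to 0.692 times in the others.

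Uptake receptors did not share 1 order. Cd163, the receptor for haemoglobin bound to haptoglobin, had 5.60, 20.0, 10.7 and 10.5 CPM in tumours 1 to 4. Like Cd14, it was lowest in tumour 1, highest in tumour 2 and close to equal in the other 2, a 3.58-fold span (edgeR adjusted p = 1). Mrc1, the mannose receptor CD206, was low in tumour 1 alone, with 40.8 CPM against 58.3, 62.1 and 62.3 CPM. Mertk, a kinase receptor for the engulfment of dying cells, was highest in tumour 4, at 37.2 CPM, with 18.3, 20.6 and 25.3 CPM in tumours 1 to 3. Msr1, a scavenger receptor of modified lipoproteins, was the flattest member, between 41.1 and 48.9 CPM, a 1.19-fold span. The folate receptor Folr2, which marks resident macrophages, was scarce at 3.60, 4.41, 2.89 and 4.04 CPM. Its span overlaps that of a predicted gene, Gm10602, which had 492 counts in the 4 libraries against 583 for Folr2, so its level is uncertain. Mrc1, Mertk, Msr1 and Folr2 did not pass the test (edgeR adjusted p = 1 for each). Marco, a scavenger receptor of alveolar and splenic macrophages, had 0 counts in tumours 1 to 3, which allows up to 0.0706, 0.0865 and 0.0782 CPM, and 3 counts in tumour 4.

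Apoe, which carries lipid out of cells, was the most abundant member at 673 ± 248 CPM (SD, n = 4). It had 328 CPM in tumour 1 and 911, 683 and 768 CPM in tumours 2 to 4, so tumour 1 was 2.78-fold below tumour 2 (edgeR adjusted p = 1). Trem2, a lipid-sensing receptor that signals through Tyrobp, did not follow it, with 15.6, 20.2, 13.8 and 23.0 CPM. Counts of Trem2 per count of Apoe were 0.0475 in tumour 1 and 0.0202 to 0.0300 in the others. The lysosomal proteases differed from each other in order. Ctss, or cathepsin S, had 136, 262, 149 and 223 CPM, high in tumours 2 and 4, whereas Lgmn, or legumain, had 135, 180, 227 and 136 CPM, highest in tumour 3. Trem2, Ctss and Lgmn did not pass the test (edgeR adjusted p = 1 for each).

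Gpnmb, a transmembrane glycoprotein of lipid-loaded macrophages that melanocytes, osteoclasts and some carcinoma cells also express, was the member that passed. It lies on chromosome 6 at 49036518 to 49058182 (GRCm38). Its level was 23.7, 13.9, 10.5 and 74.3 CPM in tumours 1 to 4, averaging 30.6 ± 29.7 (SD, n = 4). Tumour 4 stood 7.09-fold above tumour 3, and no other tumour came near it (edgeR adjusted p = 0.0158). The call was lost without tumour 2 (edgeR adjusted p = 0.0743) and without tumour 4 (1), and with Holm adjustment (1) or a common dispersion (0.0534). The other members of the lipid group did not share this span: Trem2 was 23.0 CPM in tumour 4 and 20.2 CPM in tumour 2, and Gpnmb counts per Trem2 count were 3.23 in tumour 4 and 0.689 to 1.52 in the others. Outside the members, the lipid genes Spp1 and Lipa, described below, were also highest in tumour 4, whereas Fabp4 was highest in tumour 3. Their part in the Gpnmb level was not tested. Of the melanocyte markers, Dct and Tyrp1 had 0 counts in every library, and the 6 markers summed to 3.41 to 5.97 CPM with the highest value in tumour 3. The 7 osteoclast markers summed to 65.5 CPM in tumour 4, against 39.9 to 52.9 elsewhere, of which Acp5, Ocstamp and Atp6v0d2 were highest in tumour 4 like Gpnmb. Not every marker of the list was. Dcstamp, the 1 osteoclast marker that passed, was highest in tumour 1, at 2.85 CPM against 0.463 in tumour 4 (edgeR adjusted p = 0.0163). Its call was lost, among other settings, with no count filter (0.582) and without tumour 2 (0.0859). Atp6v0d2, a subunit of the proton pump, had 1.95, 0.808, 1.38 and 7.04 CPM in tumours 1 to 4 (edgeR adjusted p = 0.262). Calcr, the calcitonin receptor, had 0 counts in tumours 1, 2 and 4 and 1 count in tumour 3. The sum of the 10 mammary epithelium markers was also highest in tumour 4 (4219 CPM against 2585 to 3970). These markers differed in order. Krt8 (1232 CPM) and Krt5 (87.0 CPM) were highest in tumour 4, whereas Krt18 and Epcam were highest in tumour 2 (1126 and 756 CPM, against 872 and 744 in tumour 4). The part of the osteoclast and epithelial markers in the Gpnmb level was not tested.

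**Figure D2:**
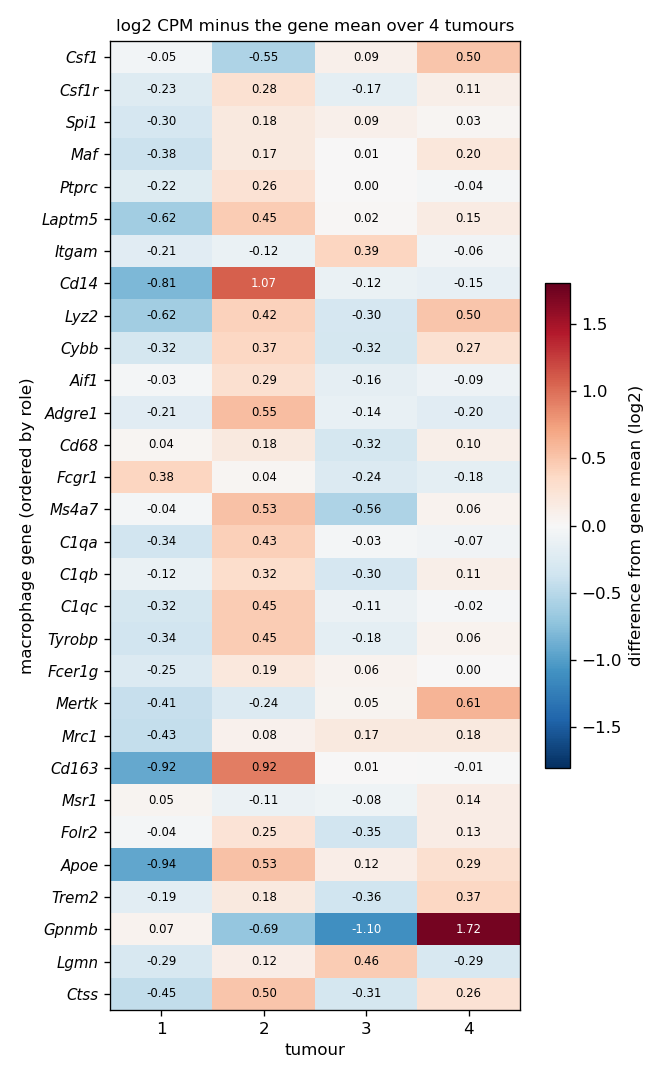
Difference of log2 CPM from the gene's mean over the 4 tumours for the 30 tested macrophage genes, in rows ordered by role, with tumours in columns, red for higher and blue for lower. The column of tumour 1 is mostly blue and that of tumour 2 mostly red, with values up to 1.07 for Cd14, and the strongest cell is Gpnmb in tumour 4 at 1.72.

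Per kilobase of transcript, which allows levels of different genes to be set side by side, the members spanned a wide scale. Apoe led at 478 ± 176 CPM per kilobase, followed by Lyz2 (218 ± 78.7), Ctss (142 ± 44.4) and C1qa (125 ± 29.0), as mean and SD over the 4 tumours. These SDs are spreads between tumours and do not compare genes within a tumour. Lyz2 had more CPM than Ctss in every tumour (177 to 387 against 136 to 262) and a shorter transcript (1316 against 1355 bases). It was thus above Ctss per kilobase in each. The order of Ctss and C1qa, whose SDs overlap, was not tested. Tyrobp stood at 65.0 ± 16.2, Csf1r at 24.4 ± 4.10, Cd68 at 23.2 ± 3.29, Ptprc at 16.7 ± 2.31 and Adgre1 at 14.3 ± 4.11. The scarce end was Folr2 (3.10 ± 0.543), Maf (2.71 ± 0.466) and Cd163 (2.66 ± 1.37), with Marco near 0. Lengths were those of 1 GENCODE transcript per gene, and for Maf, whose 6360-base transcript exceeds the RefSeq gene, the value is uncertain.

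To set the members against 1 leukocyte gene, each was divided by Ptprc in the same library, a ratio of counts that does not depend on scaling. The median range of the log2 ratio over the 4 tumours was 0.63 for the 29 other tested members and 0.90 over the 15808 genes tested, which all had counts in every tumour. Of the 29 members, 23 (79.3%) stayed within a range of 1, or 2-fold, against 56.9% of all those genes. Ptprc is itself a member and many members are leukocyte genes, so this comparison is not independent of how the members were chosen. Fcer1g and Spi1 kept the closest ratio to Ptprc, with ranges of 0.13 and 0.17. C1qa, C1qc and Csf1r followed at 0.30, 0.30 and 0.33. The 6 members with a range of 1 or more were Gpnmb (2.87), Cd14 (1.40), Cd163 (1.37), Csf1 (1.35), Mertk (1.15) and Apoe (1.06). Cd14 and Cd163 had their highest ratio in tumour 2, whereas Gpnmb, Csf1, Mertk and Apoe had theirs in tumour 4. Apoe was low against Ptprc in tumour 1 alone, with log2 ratios of 2.29, 3.29, 3.12 and 3.34 in tumours 1 to 4. These ratios were not tested.

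**Figure D3:**
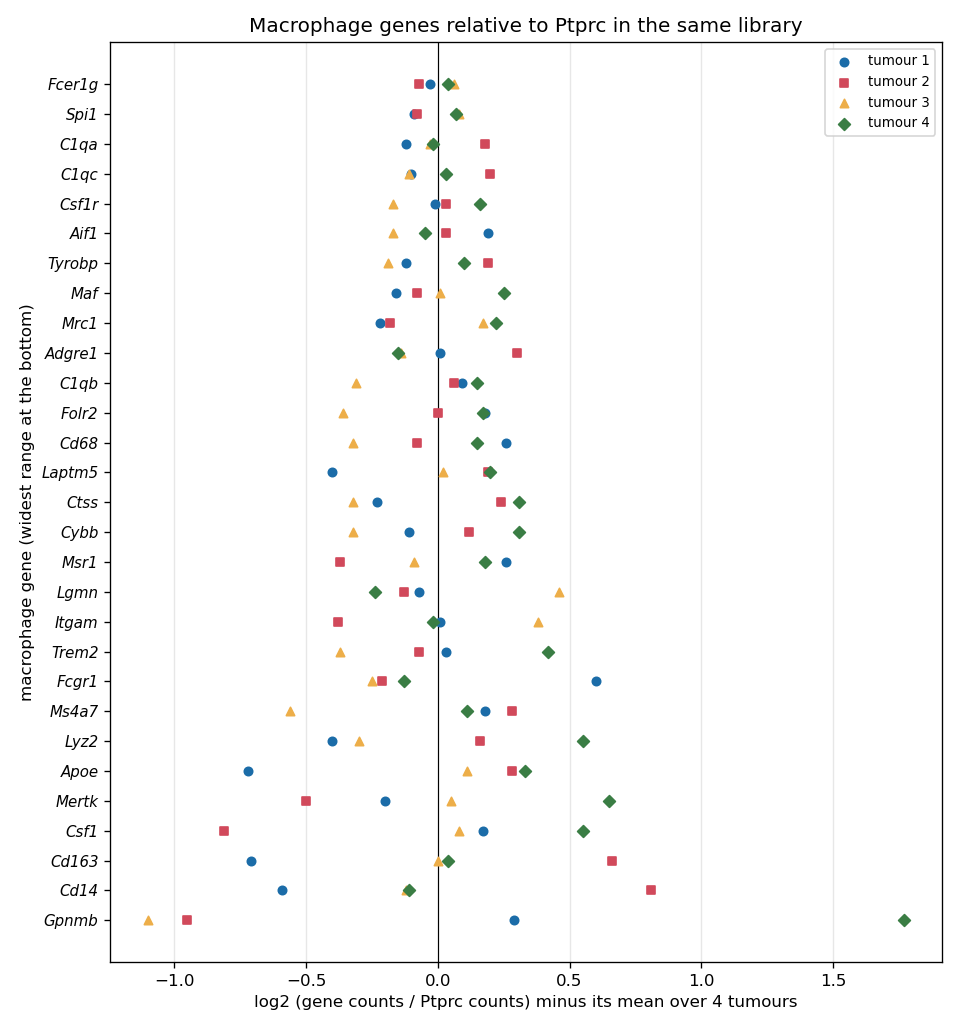
Log2 ratio of each member's counts to Ptprc counts in the same library, relative to its mean over the 4 tumours, with genes ordered from the narrowest range (top) to the widest (bottom). Fcer1g and Spi1 at the top stay within 0.13 and 0.17, and Gpnmb at the bottom spans 2.87.

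Other genes of the same pathways were read from the same fit. Of 13 tested genes of the CSF1 and myeloid growth factor list, 1 passed, the neutrophil growth factor Csf3, which reached 18.4 CPM in tumour 3 while the other tumours had 0.952 to 5.11 CPM (edgeR adjusted p = 0.00519, but 0.108 when tumour 2 was left out and 0.408 when tumour 3 was). Of 16 other complement genes 3 passed. C3, the central protein that C1q leads to, had 73.9, 448, 74.7 and 224 CPM in tumours 1 to 4 (edgeR adjusted p = 0.00552), and C4b, which C1 cleaves, had 61.2, 316, 83.6 and 223 CPM (0.0423). Tumours 2 and 4 were thus high for both, a wider split than that of the C1q chains, although the difference between them was not tested. C3 no longer passed when tumour 1 or 2 was left out (edgeR adjusted p = 0.111 and 0.575) or with a common dispersion (0.0691). C4b no longer passed when tumour 1, 2 or 3 was left out (0.543, 0.474 and 0.0707), or with library size alone (0.0551), no count filter (0.0695), the count minimum in 1 library (0.0569), a mean of at least 5 CPM (0.0679) or a common dispersion (0.242). The third, Cd55, an inhibitor of complement on cell surfaces, reached 93.4 CPM in tumour 4 while the rest had 6.26 to 23.6 CPM (edgeR adjusted p = 0.000241), a call lost when tumour 4 was left out.

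Of 22 other lipid and lysosome genes 3 passed, and 7 had an unadjusted edgeR p under 0.05 (8.74% of all genes tested did). Spp1, or osteopontin, which tumour cells also secrete, reached 9899 CPM in tumour 4 while the rest had 484 to 771 CPM (edgeR adjusted p = 4.26e-08, and 1 when tumour 4 was left out). Lipa, the acid lipase of lysosomes, was highest in tumour 4 as well, with 96.4, 114, 29.8 and 275 CPM in tumours 1 to 4 (edgeR adjusted p = 0.00657, but 0.497 when tumour 3 was left out, 0.196 when tumour 4 was and 0.0837 with a common dispersion). Fabp4, a fatty acid carrier of adipocytes, endothelium and macrophages, was highest in tumour 3, with 90.9 CPM, and lowest in tumour 4, with 7.91 (edgeR adjusted p = 0.000671, and 1 without tumour 3). Lpl, Cd36 and Plin2 did not pass (edgeR adjusted p = 0.0848, 0.0666 and 0.174) but were highest in tumour 4, at 65.0, 64.7 and 624 CPM. Fabp5 did not pass either (0.133) and was highest in tumour 3. Of 18 other phagocytosis genes, none passed in edgeR, none had an unadjusted p under 0.05 (8.74% of all genes tested did) and DESeq2 marked none (91 of all genes). The most abundant of them, Mfge8, a bridge to dying cells that mammary epithelium also secretes, had 1664, 1466, 1199 and 3769 CPM in tumours 1 to 4. The Mertk relative Axl stood at 73.0, 112, 75.3 and 96.2 CPM.

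Of 9 tested inflammatory macrophage genes 1 passed, Ptgs2, for which tumour 4 was highest (40.6 CPM) and tumour 2 lowest (2.22). Its edgeR adjusted p was 0.00241, but 0.173 when tumour 2 was left out and 0.564 when tumour 4 was. Of 4 tested alternative activation genes 1 passed, Chil3, for which tumour 3 was highest (6.75 CPM) and tumour 2 lowest (0.288). Its edgeR adjusted p was 0.0038, but 0.162 when tumour 2 was left out, 0.166 when tumour 3 was, 0.147 with no count filter and 0.121 with the count minimum in 1 library. Arg1, which breaks down arginine, was by far the most abundant gene of that list at 234, 104, 301 and 136 CPM in tumours 1 to 4 and did not pass (edgeR adjusted p = 0.922). The list had no common order: Arg1 and Chil3 were lowest in tumour 2, whereas Clec10a, a lectin of macrophages and dendritic cells, was highest there, with 1.41, 8.45, 0.704 and 5.92 CPM in tumours 1 to 4 (edgeR adjusted p = 0.104). Retnla, Mgl2 and Cd209a, too scarce to be tested, were also highest in tumour 2, with 54, 67 and 24 counts.

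Markers of other cell types were summed in the same libraries. Adipocyte markers (6 genes) summed to 17.1 CPM in tumour 2, against 0.938 to 1.49 elsewhere, so this sum was highest in the tumour with the highest summed macrophage genes. Fabp4, described above and not on that list, was highest in tumour 3 instead. Summed mammary epithelium markers were lowest in tumour 1 (2585 CPM against 3626 to 4219), as were 20 of the 30 macrophage genes. The sum of fibroblast markers was also lowest there (8 genes, 2504 CPM against 2974 to 3734), whereas that of endothelial markers was highest there (208 CPM against 157 to 184). Single genes differed: Vwf was highest in tumour 4 (56.9 CPM, against 40.2 in tumour 1), whereas Cldn5 was highest in tumour 1. Lum was lowest in tumour 3 (4.27 CPM, against 8.14 in tumour 1), whereas Col3a1 and Dpt were lowest in tumour 1. B and plasma cell markers (8 genes) had the same ends as the macrophage genes, with 3.88, 9.37, 4.30 and 7.89 CPM in tumours 1 to 4. The marker Jchain held 42.1% of this, and without it the ends were tumour 1 (2.63 CPM) and tumour 4 (5.09 CPM). The part of these cell types in the macrophage gene levels was not tested. T and NK cell markers (10 genes) summed to 2.82 to 8.06 CPM. Both lymphocyte sums were far below the 1768 to 3201 CPM of the macrophage genes, although lists of different genes are not on 1 scale. Monocyte markers summed to 1157 to 3276 CPM, but Fn1, which fibroblasts also make, held 71.6% of this. Without Fn1 the sum was 352 to 719 CPM. Single genes of that remainder differed widely: Ly6c2 and Ccr2 averaged 1.28 and 22.3 CPM, whereas Ace reached 192 CPM in tumour 4. The remainder is therefore not read as a level of monocytes. Of the 10 monocyte markers 2 passed the test, against 3.63% of all genes tested. Mast cell markers came to 1.18 to 5.55 CPM without Kit, which held 98.8% of that list. Dendritic cell markers summed to 73.4 to 141 CPM, of which Bst2, an interferon-induced gene of many cells, held 52.7%.

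**Figure D4:**
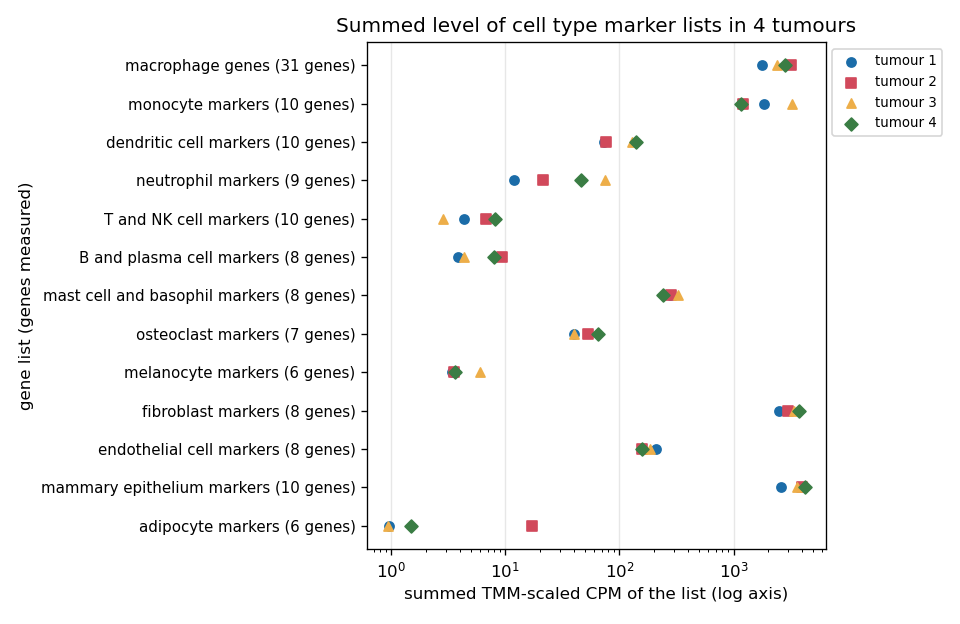
Summed TMM-scaled CPM of the macrophage genes and of 12 marker lists in the 4 tumours, on a log axis, with the number of genes measured in brackets. Macrophage genes lie between 1768 and 3201 CPM, and the adipocyte markers of tumour 2 (17.1 CPM) lie apart from those of the other 3 tumours.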

How the data were processed

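Counts of reads per Entrez gene, whole numbers that had not been normalized, are what the authors deposited, in 1 table for 4 tumours. Poly-A RNA was fragmented and turned into randomly primed, paired-end libraries, per the labels' protocols. FastQC, GRCm38 and mm10 are named per the submitters' processing notes. Aligner, counter, annotation and strand setting: not given in the sources used here. Overlapping genes therefore cannot be told apart. RefSeq (GRCm38.p6) gave symbols to 24480 of 28440 rows (97.86% of counts), and the unnamed rows were kept in every fit. filterByExpr of edgeR 4.0.16 (R 4.3.3, minimum count 10) retained 15808 genes, which were TMM-scaled. With 1 group it asked for that minimum, scaled to depth, in every tumour. A gene nearly absent from 1 tumour was therefore not tested, whatever its level in the others. For each gene, the deviance of an intercept-only fit with trended dispersion was set against chi-square. Log2 CPM used a prior count of 2. In simulated data built from these libraries' means, with genes raised in 1 library, the test recovered 25% of 48 genes at 4-fold, 61.2% of 49 at 8-fold and 98% of 50 at 16-fold, and it called 0 of 15451 when none was raised. The simulated counts were drawn at the trended dispersion that the test itself assumes. These shares therefore do not cover genes whose dispersion departs from the trend. Lengths are of the GENCODE M21 principal transcript. Alternatives were other scalings, filters, adjustments, dispersions (DESeq2 1.42.0 outliers among them), prior counts and reference genes, and each tumour left out.

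The members and the lists were chosen with earlier results of these data known. By rule, the text could name all members and, of each of 18 other lists, the gene with the highest mean, the tested gene with the largest SD and every gene past the test. Il34, Axl, Lyz1, Clec10a, Retnla, Mgl2, Cd209a, Ocstamp, Atp6v0d2, Calcr, Dct, Tyrp1, Krt18, Epcam, Ly6c2, Ccr2, Lum, Lpl, Cd36, Plin2, Fabp5 and Gm10602 fall outside that rule and were named after their values were seen. Unused per-sample columns numbered 0. The values of 1 gene of the other lists are not reported here.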

Additional observations from a re-analysis of the deposited data

Results flagged for a closer look

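Of 65 genes checked, 9 had 1 tumour far from the other 3, by the gap to the nearest tumour as a share of the whole range (Dixon's 95% critical value for 4 samples). Chance flags about 1 in 20 groups, and 7.83% of all genes tested met the same limit. The checked genes outside the 30 members were those of the naming rule, some chosen for the largest SD or for passing the test. Their share is therefore not comparable with that of all genes. Among the macrophage genes it was Adgre1, whose 66.1 CPM in tumour 2 left a gap of 0.922 of the range. The others were Spp1 (0.969), Ace (0.843) and Krt5 (0.961), each high in tumour 4, Cxcl10 (0.864), Dpt (0.899) and Cfd (0.989), each high in tumour 2, Fscn1 (0.831), high in tumour 3, and Dcstamp (0.931), high in tumour 1 at 2.85 CPM.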

How the results depend on the processing

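The count of macrophage genes past the test was 1 and stayed 1 under RLE scaling, library size alone, no count filter, the count minimum in 1 library and a mean of at least 5 CPM, and it was 0 with Holm adjustment, with a common dispersion and by DESeq2's rule for dispersion outliers. Leaving out single tumours gave 0 to 1. At an unadjusted p under 0.05 edgeR had 2 of 30 macrophage genes (6.67%), below the 8.74% of all genes tested. Of the genes in the other lists 17 passed, against 5 with Holm adjustment, 2 by DESeq2 and 7 to 13 with single tumours left out. Over all genes 574 passed, and 895 with no count filter, 945 with the count minimum in 1 library, 198 with Holm adjustment, 91 by DESeq2 and 367 without tumour 4. A further pair of counts were varied after seeing the data: tumour 2 was highest for 19 to 22 and tumour 1 lowest for 18 to 23 of 30 genes under the other scalings or with another tumour left out. With another tumour left out, a gene keeps its highest or lowest tumour unless the scaling shifts. Those settings could therefore hardly lower the counts and are no check on them. No share over all genes is set beside these counts. The median differences per tumour moved by less than the SD between tumours (0.24) under every alternative run, and the range relative to Ptprc (0.63) was 0.78 against Laptm5 and 0.55 against Csf1r. No paired analysis was possible because the samples form 1 group. Holm adjustment also ended, among others, the calls of Csf3, C3, C4b, Lipa, Fabp4, Ptgs2, Chil3 and Dcstamp. Of the pathway genes called, DESeq2 marked Spp1 alone. The common biological coefficient of variation was 0.411. The count filter left Marco and 7 of 10 T and NK cell markers untested.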
